A study of Mus musculus with 1528 samples.

Results

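The cells described here were the bone marrow-derived macrophages (BMDMs) with the highest joint expression of Dcstamp, H2-M2, Itgax, Mmp12, Pdpn and Lrrc32 after treatment with IL4+IL13+TNF. Each cell was scored by the mean of log2(CPM + 1) over these 6 genes, where CPM is counts scaled to 1e+06 gene-assigned fragments without spike-ins, and the class was chosen by this score, as the top 20% of the kept TNF-treated cells. The measured levels of the 6 genes thus selected the members. This gave 144 high-score cells of 718 kept TNF-treated cells, leaving 574 other cells for comparison. The series held 1524 assigned wells in all, each with 1 sorted cell sequenced by a full-length plate method (Smart-seq2).

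The BMDMs were grown with M-CSF from the marrow of 2 wild-type C57BL/6 mice and were treated for 24 h with IL4 and IL13, or with IL4, IL13 and TNF, each at 10 ng/ml. Plates 2 and 3 held cells of mouse 1 and plates 4 and 5 cells of mouse 2, and each plate carried both treatments. Both groups therefore shared the cytokines IL4 and IL13, and TNF was the only labelled difference in treatment. On each plate the IL4+IL13 cells lay in rows A to H and the TNF-treated cells in rows I to P. Effects of TNF and of position on the plate thus cannot be told apart. The replicate is the mouse (n = 2), and plates of 1 mouse repeat the sorting and library steps only.

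IL4 and IL13 signal through a shared receptor chain and drive macrophages toward alternative activation, a state linked to tissue repair. TNF acts through its receptors on NF-κB and MAP kinase pathways and restrains part of that response. Dcstamp encodes a membrane protein needed for fusion of macrophages into giant cells and osteoclasts, Itgax the integrin αX (CD11c), Mmp12 the macrophage elastase, Lrrc32 the protein GARP that holds latent TGF-β at the cell surface, Pdpn the membrane glycoprotein podoplanin, and H2-M2 a nonclassical MHC class I molecule.

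Of 756 TNF wells, 718 were kept, and of 768 IL4+IL13 wells, 721 were kept, a kept well having 200000 or more gene fragments, 5000 or more detected genes and no more than 10% of fragments from mitochondrial genes. The high-score cells numbered 35, 36, 36 and 37 on plates 2 to 5. Their median depth was 465674 fragments against 462680 in the other cells, and they had a median of 8035 genes against 7999.5. The ratio of median fragments between the classes ranged from 0.936 to 1.07 over the 4 plates and that of genes from 0.980 to 1.01. The mitochondrial share had a median of 3.02% in the high-score cells and 2.96% in the others, and the spike-in share 0.0451% and 0.0483%. The ratio of median spike-in shares between the classes was 1.02, 0.728, 1.06 and 0.779 on plates 2 to 5. No doublet caller was run, because cells were sorted 1 to a well.

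The high-score cells carried most general markers of macrophages, but some of these were found less often than in the other cells. Shares of cells here and below are at equal depth, with each cell thinned to 200000 fragments, unless another depth is stated. Csf1r, the M-CSF receptor, Cd68 and Lyz2 were found in 100% of the 144 cells, and Spi1, which encodes PU.1, in 98.6%. The shares in the other cells were 99.3%, 99.8%, 100% and 98.6%. Of other macrophage markers, Fcgr1 was found in 12.5% against 29.8% of the others, Aif1 in 34.0% against 54.2% and Mertk in 11.1% against 20.6%. Adgre1 was found in 96.5% against 99.0%, and Ptprc in 100% against 99.1%. The defining osteoclast genes Calcr and Oscar were found in 0% of the high-score cells, and in 0.174% and 0% of the others. These genes therefore do not separate the classes. Other genes of fusion and osteoclasts did differ in share. Ctsk, the bone protease cathepsin K, was found in 52.8% against 38.5% of the others, and Ocstamp in 14.6% against 1.57%. Acp5 was found in 34.7% against 18.99%, Mmp9 in 20.8% against 9.23% and Atp6v0d2 in 98.6% against 92.3%. Nfatc1 went the other way, at 41.7% against 49.5%. Of the dendritic cell genes, Zbtb46 was found in 10.4% against 5.92% of the others, Flt3 in 71.5% against 72.5%, at no more than 7.22 CPM in any sum, and Ccr7 in 11.1% against 15%, while Cd209a and Dpp4 were each found in 1.39% against 2.09%. Of the alveolar macrophage genes, Marco was found in 2.08% against 1.22% and Car4 in 0% against 0.348%, but Pparg in 72.2% against 52.1% and Siglecf in 14.6% against 2.96%. Lists of lymphocyte, granulocyte, erythroid and stromal genes summed to at most 9.97 CPM in either class of either mouse. In the high-score sums, 4 of 12 lymphocyte, 9 of 13 granulocyte and mast cell, 0 of 16 stromal and endothelial and 5 of 10 erythroid and platelet genes were at 0. Only 1, 0, 5 and 0 genes of these lists passed the filter on low counts, and their part in the results was not tested.

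The score was continuous, so the class is a range and not a cell type. The lowest high-score cell had a score of 4.08 and the fifth lowest 4.13, and the nearest cells outside the class scored 4.08 and, for the fifth, 4.04. Within 0.5 of this boundary lay 34 high-score cells and 41 other cells. The high-score cells had a median score of 5.46 and a maximum of 9.24, the other TNF-treated cells a median of 1.80, and the IL4+IL13 cells a median of 0.845.

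**Figure D1:**
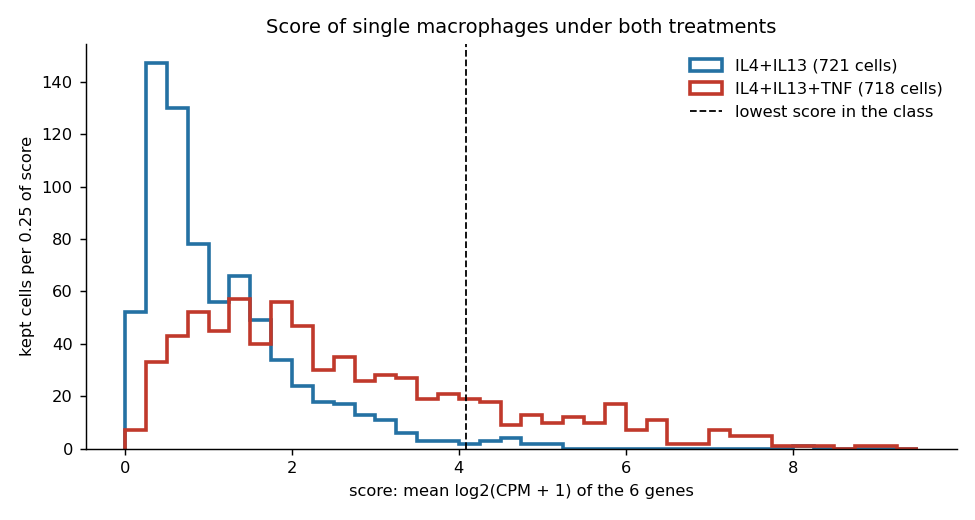
Number of kept cells (y axis, per 0.25 of score) by score (x axis, mean log2(CPM + 1) of the 6 genes), with an outline for each treatment over 721 IL4+IL13 and 718 IL4+IL13+TNF cells. The dashed line is the lowest score in the class, 4.08, with 144 TNF-treated and 14 IL4+IL13 cells at or above it.

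The 6 genes contributed unevenly to the class. These values chose the cells and are given as a description. Mmp12 had a mean over the high-score cells of 4105, 3816, 3979 and 4041 CPM on plates 2 to 5, against 480, 635, 354 and 354 CPM in the other cells. It was found in 98.6% and 100% of the high-score cells of mice 1 and 2 and in 88.0% and 84.0% of the others, so that the classes differed in its level far more than in its detection. Itgax had means of 256, 241, 432 and 382 CPM in the high-score cells and 43.8, 51.6, 44.6 and 41.7 CPM in the others. It was found in 97.2% and 93.2% of the high-score cells of the 2 mice against 46.6% and 42.6% of the others.

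Dcstamp and Lrrc32 were rarely found in the other cells. Dcstamp had means of 77.4, 228, 267 and 225 CPM on plates 2 to 5 in the high-score cells and of 3.42, 3.07, 2.56 and 2.09 CPM in the others. It was found in 56.3% and 76.7% of the high-score cells of mice 1 and 2, and in 9.25% and 3.19% of the others. Lrrc32 had means of 55.8, 39.4, 65.7 and 93.9 CPM against 1.24, 3.04, 2.96 and 3.44 CPM. It was found in 56.3% and 68.5% of the high-score cells and in 5.48% and 6.74% of the others. H2-M2 and Pdpn were less closely tied to the class.

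H2-M2 had means of 360, 344, 327 and 413 CPM in the high-score cells and 77.4, 70.8, 62.3 and 53.1 CPM in the others, and was found in 60.6% and 60.3% against 35.3% and 29.1% of cells. Pdpn was uneven between the mice. Its means were 56.8 and 66.9 CPM on the plates of mouse 1 and 12.9 and 10.7 CPM on those of mouse 2 in the high-score cells, against 7.84, 11.2, 3.36 and 6.36 CPM in the others. It was found in 47.9% of the high-score cells of mouse 1 but 17.8% of those of mouse 2.

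**Figure D2:**
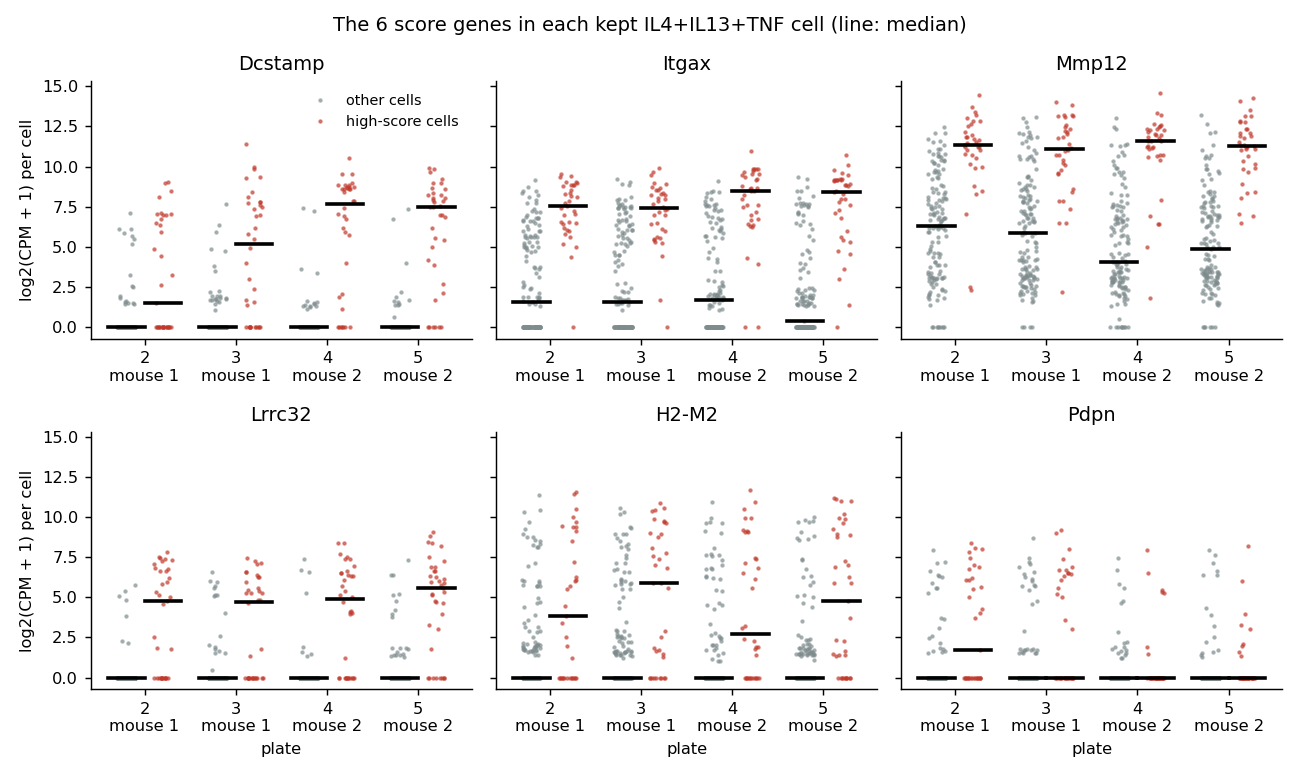
Level of each of the 6 score genes (log2(CPM + 1)) in each kept TNF-treated cell by plate and mouse (x axis), high-score and other cells side by side, with black lines at the medians. Mmp12 and Itgax are found in nearly all high-score cells, and Pdpn in 32.6% of them against 11.8% of the others.

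Few high-score cells expressed all 6 genes. At equal depth, 29 of the 144 cells had 3 of the genes, 67 had 4, 43 had 5 and 5 had 6, and 3.48% of the other cells had 4 or more. Within plates, the rank correlation over all kept TNF-treated cells averaged 0.44 between Dcstamp and Lrrc32, 0.39 between Dcstamp and Itgax, and 0.38 between Itgax and Mmp12. The mean correlation of H2-M2 was 0.02 with Pdpn and between 0.10 and 0.17 with the other genes, and that of Pdpn was between 0.02 and 0.14. These correlations are over 175 to 185 cells a plate, which share a plate and a treatment and vary in depth. Among the high-score cells alone Dcstamp and H2-M2 had a mean correlation of -0.25, but choosing cells by the sum of the values lowers such correlations.

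The genes lie on 5 chromosomes of the mm10 build. Dcstamp (ENSMUSG00000022303) is at chr15:39745930-39760938 (+), H2-M2 (ENSMUSG00000016283) at chr17:37480851-37483552 (-), Itgax (ENSMUSG00000030789) at chr7:128129547-128150657 (+), Mmp12 (ENSMUSG00000049723) at chr9:7344381-7369499 (+), Pdpn (ENSMUSG00000028583) at chr4:143267431-143299564 (-) and Lrrc32 (ENSMUSG00000090958) at chr7:98489283-98502181 (+). RefSeq promoter windows of 300 bases, from 250 before to 50 after each annotated start (GRCm38.p6, the build mm10), were matched for 4 of the 6 genes, all but Dcstamp and Lrrc32. Those of Itgax and of both starts of Mmp12 are shown because these 2 genes were found in nearly all high-score cells and had a rank correlation of 0.38 with each other. Capitals mark a match to the AP-1 motif TGANTCA or to GAGGAA, a core motif of PU.1, both searched on both strands.
Itgax, chr7:128129300-128129599 (+): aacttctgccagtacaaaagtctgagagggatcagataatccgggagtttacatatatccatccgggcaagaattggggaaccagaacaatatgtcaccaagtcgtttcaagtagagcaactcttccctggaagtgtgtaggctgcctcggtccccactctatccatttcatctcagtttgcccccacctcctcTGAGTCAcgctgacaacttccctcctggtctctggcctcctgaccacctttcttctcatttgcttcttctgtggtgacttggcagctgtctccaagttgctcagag
Mmp12, first start, chr9:7344147-7344446 (+): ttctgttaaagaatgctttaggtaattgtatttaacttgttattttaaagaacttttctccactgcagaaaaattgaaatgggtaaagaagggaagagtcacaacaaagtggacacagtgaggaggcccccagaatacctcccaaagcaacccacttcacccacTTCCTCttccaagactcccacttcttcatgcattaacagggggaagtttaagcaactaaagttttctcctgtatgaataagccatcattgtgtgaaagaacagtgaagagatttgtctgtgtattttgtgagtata
Mmp12, second start, chr9:7347124-7347423 (+): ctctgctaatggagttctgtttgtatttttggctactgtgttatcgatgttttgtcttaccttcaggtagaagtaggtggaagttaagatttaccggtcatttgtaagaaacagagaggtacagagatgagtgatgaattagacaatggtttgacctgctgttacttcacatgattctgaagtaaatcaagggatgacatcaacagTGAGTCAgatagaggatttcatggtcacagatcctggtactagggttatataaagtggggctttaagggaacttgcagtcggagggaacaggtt
The Itgax window held TGANTCA starting 56 bases before the annotated start, and the window of the second Mmp12 start held it at 44 bases before. The window of the first Mmp12 start held GAGGAA on the reverse strand at 86 bases before. H2-M2 held GAGGAA on the reverse strand at 160 and 33 bases before its start, and the Pdpn window held neither motif. Of all 32851 windows, 7.81% held TGANTCA and 28.3% held GAGGAA. No match to 1 motif overlapped a match to the other, and a match describes the letters only.

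Each gene was then left out of the score in turn and measured in the top 20% of cells by the other 5 genes. The 6 genes had been chosen together with earlier results of these data known, and under TNF these top cells shared 124 to 132 of their 144 members with the class, so the values are a description and no test is given. Under TNF each of the 6 had a higher level in the top cells on 4 of 4 plates. Dcstamp reached 138 and 201 CPM in the summed counts of the top cells of mice 1 and 2, against 8.05 and 14.6 CPM in the rest, a log2 fold change of 4.04 ± 0.15 (SE). Lrrc32 reached 35.7 and 65.7 against 4.0 and 8.06 CPM (log2 3.20 ± 0.18), Mmp12 3497 and 3541 against 633 and 495 CPM (2.74 ± 0.13), and Itgax 228 and 344 against 50.9 and 52.9 CPM (2.55 ± 0.19). H2-M2 and Pdpn differed least, with log2 fold changes of 1.65 ± 0.22 and 1.51 ± 0.22. Under IL4+IL13 the same was seen on 4 of 4 plates for Dcstamp, Itgax, Mmp12 and Pdpn and on 3 for Lrrc32, but on 2 for H2-M2, which stood at 0.359 and 3.76 CPM in the top cells against 0.433 and 0.406 CPM.

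The comparison of all other genes between the classes asked which genes vary together with the score among cells that received the same treatment. High-score cells had more RNA of GM-CSF receptor chains, MHC class II genes, Anxa1 and Ahr, and less of Maf, Mrc1 and the chemokines Ccl7, Ccl8 and Ccl12. Over the 2 mice, the edgeR quasi-likelihood test with Benjamini-Hochberg adjustment called 0 of 16854 genes (0% at an adjusted p under 0.05, smallest 0.188), with 2146 genes, or 12.7%, at an unadjusted p under 0.05. DESeq2 on the same sums called 890 (5.28%), and limma on mean CPM per cell called 0, with 2579 at an unadjusted p under 0.05. The fit on plate sums called 81 of 15699 genes (0.516%), 52 higher (0.331%) and 29 lower (0.185%). It called 15 genes without plate 3 and 0 without plate 2, 4 or 5. That fit treats plates of 1 mouse as replicates, so its p-values measure the spread between plates. An exact permutation test over mice could not go below 0.5, and over plates not below 0.125.

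The 81 genes all differed in the same direction on 4 of 4 plates, but the fit that called them used those plates, so this adds no support. Of all genes, 26.3% had the same direction on all 4 plates and 13.3% were lower on all 4. All 81 had an unadjusted p under 0.05 over mice, with adjusted values from 0.188 to 0.244, and DESeq2 also called 80 of them. A gene is said below to differ over plates where it was among these 81. All other differences are given as values, as log2 fold changes of the fit over 2 mice ± SE. The SE is the absolute log2 fold change over the square root of the edgeR quasi-likelihood F statistic. That statistic uses dispersion moderated across genes, so the SE is not the spread measured between the 2 mice alone. Counts of list genes below, where no other measure is named, are at an unadjusted p under 0.05 over mice. Of all genes, 5.38% were higher and 7.35% lower at that p. TMM, the trimmed mean scaling of edgeR, put the median of all genes at -0.01, and library size alone put it at -0.12.

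**Figure D3:**
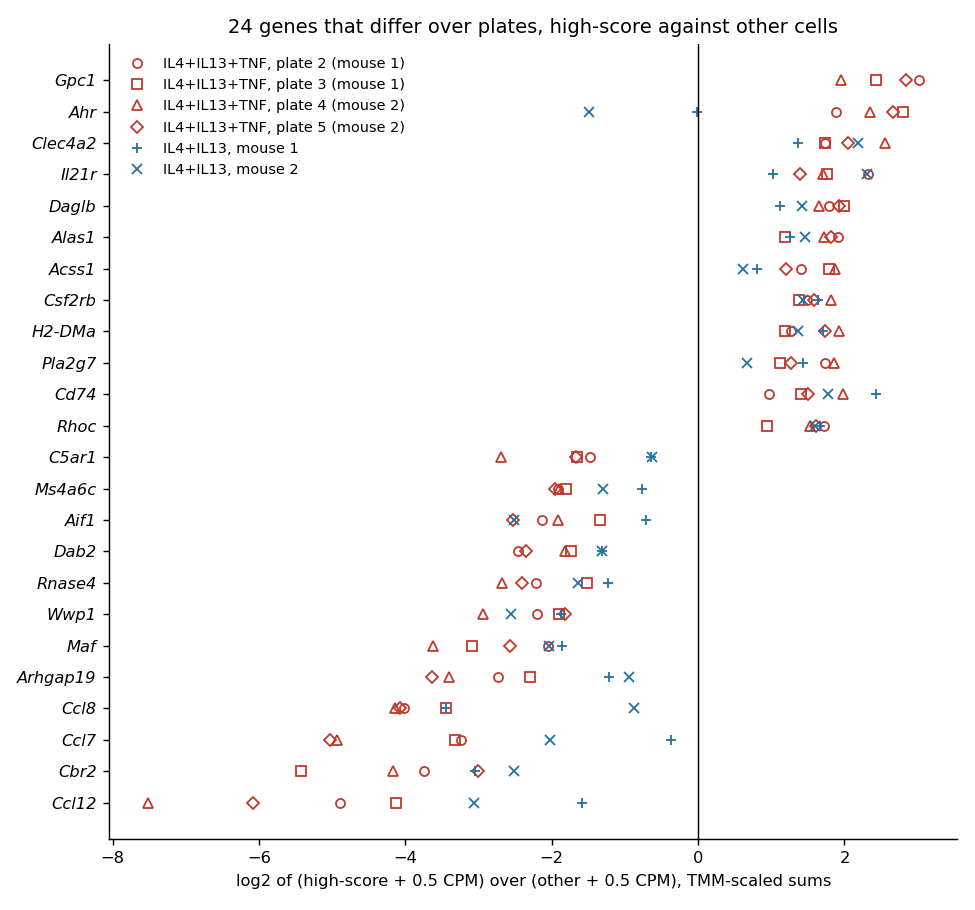
Log2 of the ratio of high-score to other cells (x axis, TMM-scaled sums with 0.5 CPM added) for the 12 largest higher and 12 largest lower genes of the rule (y axis). Red symbols are the 4 plates under IL4+IL13+TNF, all on the same side of 0, and blue crosses the 2 mice under IL4+IL13, which cross to the lower side for Ahr.

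The receptor of GM-CSF, a cytokine that shapes dendritic cells and alveolar macrophages, was higher in the high-score cells. Csf2rb, its signalling chain, stood at 670 and 1070 CPM in the high-score cells of mice 1 and 2 and at 265 and 358 CPM in the others. The log2 difference was 1.48, 1.38, 1.82 and 1.58 on plates 2 to 5, and Csf2rb differed over plates (edgeR adjusted p = 0.0169). In single cells its lower quartile in the high-score cells, 457 CPM, was above the upper quartile of the others, 407 CPM.

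Csf2rb was also the gene with the highest rank correlation with the score within plates, a mean of 0.60 among 9388 genes ranked over 4 plates. Csf2rb2, a close copy with which it may share reads, stood at 317 and 505 against 154 and 223 CPM, and Csf2ra, the ligand-binding chain, at 319 and 339 against 224 and 227 CPM. Both differed over plates, with log2 fold changes of 1.23 ± 0.10 and 0.66 ± 0.10. The next in rank correlation were Anxa1 (0.58), Itgb2 (0.49), Csf2rb2 (0.49), Alas1 (0.49), Rhoc (0.48), Gpc1 (0.48), Lpl (0.47), Cd52 (0.47) and Clec4a2 (0.45). These are descriptions over cells of the same plates, with no test.

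Anxa1, the glucocorticoid-linked annexin A1, stood at 8501 and 6276 CPM in the high-score cells against 4073 and 2374 CPM, and differed over plates (log2 1.35 ± 0.11). Its lower quartile over the high-score cells, 4641 CPM, was above the upper quartile of the other cells, 4482 CPM. Alas1, the first enzyme of haem synthesis, had 645 and 469 against 231 and 150 CPM, and Rhoc, a small GTPase of the actin cytoskeleton, 322 and 241 against 136 and 88.7 CPM. Both differed over plates, as did the surface glycoprotein Cd52 (1641 and 1977 against 990 and 1121 CPM).

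Gpc1, the cell surface proteoglycan glypican 1, was found in 63.9% of the high-score cells and 16% of the others. Its level was 74.0 and 43.7 CPM against 11.4 and 8.38 CPM, a log2 fold change of 2.65 ± 0.18. Ahr, the aryl hydrocarbon receptor, was found in 47.2% against 14.5% of cells, with 35.0 and 49.7 CPM against 6.78 and 9.15 CPM (log2 2.52 ± 0.18). The C-type lectin Clec4a2 stood at 283 and 314 against 90.2 and 70.1 CPM (2.02 ± 0.18), and the IL21 receptor Il21r at 29.4 and 34.7 against 7.17 and 12.6 CPM (1.86 ± 0.23). All 4 differed over plates.

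The other genes of this group that differed over plates were Daglb, a diacylglycerol lipase (1.87 ± 0.12), Acss1, the mitochondrial acetyl-CoA synthetase (1.64 ± 0.17), and Pla2g7, which degrades platelet-activating factor (1.51 ± 0.12). Outside the rule for named genes, and chosen after their values were seen, Slamf8 (1.28 ± 0.10), Egr2 (1.23 ± 0.11), Il7r (1.06 ± 0.09), Irf5 (0.89 ± 0.10) and Lat (2.14 ± 0.29) were also higher over plates.

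Of 9 MHC class II and peptide-loading genes tested, 8 were higher at an unadjusted p under 0.05 over mice (5.38% of all genes), 7 were higher on all 4 plates, and 2 differed over plates, H2-DMa and Cd74. The list had a median log2 fold change of 1.53, against -0.01 over all genes. Cd74, the invariant chain, stood at 1059 and 1469 CPM against 480 and 480 CPM. H2-DMa, a peptide exchange subunit, stood at 194 and 391 against 88.8 and 120 CPM. The class II chains H2-Aa (log2 1.94 ± 0.18) and H2-Eb1 (2.04 ± 0.26) and the class II transactivator Ciita (1.6 ± 0.21) were higher on 4 of 4 plates but did not pass over plates, with edgeR adjusted p of 0.0871, 0.133 and 0.0505.

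The class II genes varied widely among the high-score cells. The median cell had 1069 CPM of H2-Aa and the lower quartile was 145 CPM, while the other cells had a median of 38.4 CPM and a maximum of 26873 CPM. The classes thus overlapped over the whole range of H2-Aa. MHC class I genes differed less: of 18 tested, 4 were higher and 1 lower at an unadjusted p under 0.05, with a median of 0.15. The nonclassical H2-T23 differed over plates, at 769 and 944 against 557 and 666 CPM. H2-D1 had a log2 fold change of 0.27 ± 0.05, B2m of 0.13 ± 0.04, H2-K1 of -0.03 ± 0.06 and H2-M3 of 0.05 ± 0.13. These class I and class II genes have close relatives, so reads may be shared among copies.

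**Figure D4:**
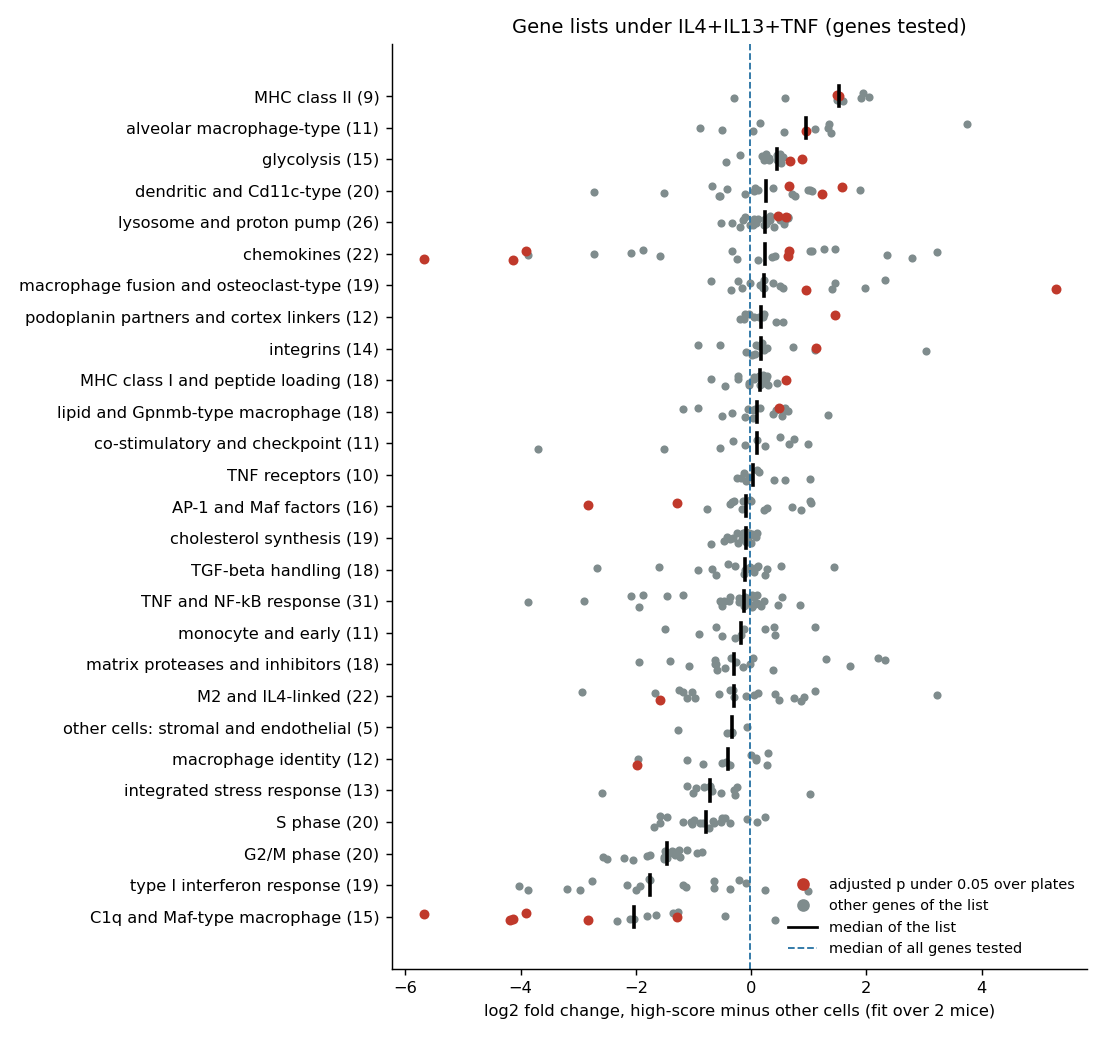
Log2 fold change between high-score and other TNF-treated cells (x axis, fit over 2 mice) of the tested genes of each list (y axis, number in brackets), each point a gene, red where it differed over plates, with a bar at the list's median and a dashed line at that of all genes. The MHC class II genes have a median of 1.53, and the C1q and Maf-type genes one of -2.04.

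Genes of macrophage fusion and osteoclasts were mixed. Of 19 tested without Dcstamp, 7 were higher and 1 lower at an unadjusted p under 0.05 (5.38% and 7.35% of all genes). In this list 2 differed over plates, Ocstamp and Atp6v0d2, and the median was 0.22. Ocstamp, which acts with Dcstamp in fusion, was found in 21 of 144 high-score cells and 9 of 574 others, with 32.7 and 52.3 CPM against 1.94 and 0.646 CPM. Atp6v0d2, a proton pump subunit also needed for fusion, was in 98.6% of high-score cells, at 1292 and 945 against 650 and 583 CPM. The tartrate-resistant phosphatase Acp5 stood at 26.2 and 29.9 against 13.1 and 10.1 CPM and did not pass over plates.

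Nfatc1, the master factor of osteoclasts, had a log2 fold change of -0.69 ± 0.25, Ctsk of 0.15 ± 0.32 and the proton pump subunit Tcirg1 of 0.58 ± 0.14, and none of these passed. Outside the rule, Car2 (1.97 ± 0.21) and Src (1.45 ± 0.26), both known from osteoclasts, were higher on 4 of 4 plates and did not pass, with edgeR adjusted p over plates of 0.0600 and 0.0901. Mmp9 (2.33 ± 0.26) was higher on 3 of 4 plates.

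Among integrins, Itgb2, the β2 chain that pairs with the product of Itgax, stood at 1492 and 1375 CPM against 815 and 617 CPM and differed over plates (log2 1.13 ± 0.11). The other α chains that pair with it did not move alike. Itgam (CD11b) had a log2 fold change of 0.09 ± 0.11, Itgal of -0.53 ± 0.42 and, outside the rule, Itgad of 3.04 ± 0.59 at no more than 1.93 CPM. Of 14 integrin genes tested without Itgax, 4 were higher and 1 lower at an unadjusted p under 0.05, with a median of 0.17 that turned to -0.19 with a top 10% class. The vitronectin receptor chain Itgav had -0.09 ± 0.25 and, outside the rule, Itga4 had -0.93 ± 0.15.

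The relatives of Mmp12 did not follow it as a group. Of 18 matrix proteases and inhibitors tested, 4 were higher and 4 lower at an unadjusted p under 0.05 (5.38% and 7.35% of all genes). In this list 0 differed over plates, and the median was -0.30, but -0.11 in each mouse taken alone. Mmp19 had a log2 fold change of 1.71 ± 0.42 and, outside the rule, Mmp8 of 1.30 ± 0.24. The collagenase Mmp13 had -0.25 ± 0.38, the membrane-bound Mmp14 -1.07 ± 0.26, and the inhibitors Timp1 and Timp2 -0.02 ± 0.52 and -0.45 ± 0.13.

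The partners of Lrrc32 and Pdpn were flat or mixed. Of 18 genes of TGF-β handling tested without Lrrc32, 1 was higher and 3 lower at an unadjusted p under 0.05. The shares of all genes were 5.38% and 7.35%. In this list 0 differed over plates, and the median was -0.10, or 0.02 without mouse 1. Tgfb1, the ligand, had -0.02 ± 0.41, Nrros, a relative of GARP in myeloid cells, -0.11 ± 0.10, and the convertase Furin 0.04 ± 0.15. Of 12 genes for podoplanin partners and cortex linkers tested without Pdpn, 4 were higher, with a median of 0.17, and Rhoc was the only list member that differed over plates. Ezr and Cd44, known partners of podoplanin, had 0.44 ± 0.12 and 0.21 ± 0.09.

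Of 11 genes typical of alveolar macrophages tested, 5 were higher on 4 of 4 plates (26.3% of all genes had 1 direction there, 13.3% lower). At an unadjusted p under 0.05, 5 were higher (5.38% of all genes). The list median was 0.96, and 0.63 and 0.50 in mice 1 and 2 taken alone. Atp6v0d2, which is also on the fusion list, was the only member that differed over plates. Pparg, the nuclear receptor that defines this type, stood at 113 and 64.3 against 37.4 and 33.2 CPM (log2 1.39 ± 0.20, edgeR adjusted p over plates 0.0606). Outside the rule, Siglecf was found in 14.6% of the high-score cells and 2.96% of the others, at 15 and 15.3 against 0.993 and 1.51 CPM.

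Of 20 dendritic cell genes tested without Itgax, 6 were higher and 2 lower. The median of the list was 0.25, or -0.0085 with a top 10% class. Csf2rb, Csf2rb2 and Csf2ra were the members that differed over plates. Irf4 stood at 31.3 and 69.8 against 13.1 and 14.4 CPM (1.89 ± 0.32), Batf3 had 0.70 ± 0.19 and Ccr7 -2.73 ± 1.14, with 0.364 CPM in the high-score cells of mouse 1 and 86.8 CPM in those of mouse 2. Zbtb46 was higher on the plates of mouse 2 and lower on those of mouse 1. Of 11 costimulatory and checkpoint genes, 2 were higher and 2 lower, with a median of 0.10 that turned to -0.01 with library size in place of TMM, -0.03 with no filter, -0.20 without mouse 2 and -0.06, -0.05 and -0.11 without plates 2, 4 and 5. Cd86 had -1.51 ± 0.28, Cd274 -0.31 ± 0.12, Cd80 0.98 ± 0.35 and Tnfsf9 0.10 ± 0.27.

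Of 26 lysosomal genes tested, 11 were higher and 1 lower at an unadjusted p under 0.05 (5.38% and 7.35% of all genes). In this list 14 were higher and 4 lower on all 4 plates, 2 differed over plates, and the median was 0.25. The share of all genes with 1 direction on all 4 plates was 26.3%, with 13.3% lower. Ctss, a cathepsin that trims the invariant chain, stood at 11594 and 12023 against 8414 and 8485 CPM and differed over plates, as did Ctsz. Ctsb and Ctsd had 0.06 ± 0.07 and -0.11 ± 0.06. Of 18 lipid-handling and Gpnmb-type genes, 8 were higher and 2 lower with a median of 0.11, and -0.00093 with library size in place of TMM. Lgals3, galectin 3, differed over plates, at 21102 and 16401 against 16405 and 12559 CPM.

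The lipoprotein lipase Lpl stood at 4899 and 3887 against 3065 and 1143 CPM, and its larger difference was in mouse 2 (1.84 and 1.96 on its plates against 0.81 and 0.73 in mouse 1). Gpnmb had 0.54 ± 0.15, Trem2 0.18 ± 0.08 and Spp1, osteopontin, -0.92 ± 0.15. Outside the rule, Apoe stood at 29.3 and 48.8 against 87.7 and 98.2 CPM. Of 15 glycolytic genes, 8 were higher and 0 lower (5.38% and 7.35% of all genes), with a median of 0.45. Hk3 and Pfkp differed over plates, with 326 and 257 against 207 and 184 CPM for Hk3. Ldha, Pgk1, Hk2 and Slc2a1 had 0.27 ± 0.09, 0.56 ± 0.14, 0.52 ± 0.16 and 0.22 ± 0.13.

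Genes of resident-type macrophages marked by complement C1q and Maf were lower in the high-score cells. Of 15 tested, 13 were lower at an unadjusted p under 0.05 (7.35% of all genes) and 14 on 4 of 4 plates (13.3% of all genes). Over plates 6 differed (among them Maf, Ccl7, Ccl8 and Ccl12), and the median was -2.04. Maf, a transcription factor of mature macrophages, stood at 12.6 and 14.7 CPM in the high-score cells and at 79.6 and 139 CPM in the others. Its upper quartile over the high-score cells was 9.32 CPM and the median of the other cells 36.5 CPM.

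Cbr2, a carbonyl reductase of tissue macrophages, was found in 16% of the high-score cells and 46.5% of the others, at 2.21 and 5.07 against 64.3 and 71.0 CPM, and differed over plates. C1qa had a log2 fold change of -2.04 ± 0.47, the scavenger receptor Stab1 (outside the rule) -2.11 ± 0.25, Pf4 -1.36 ± 0.26 and the phagocytic receptor Mertk -1.11 ± 0.97, and Folr2 had -0.46 ± 0.22. C1qb, outside the rule, was at 843 and 589 against 1717 and 1954 CPM, and was lower on 4 of 4 plates.

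Other named genes were lower over plates. Dab2, an endocytic adaptor, stood at 40.4 and 27.8 against 178 and 129 CPM (log2 -2.06 ± 0.12). C5ar1, the C5a receptor, stood at 196 and 53.1 against 610 and 248 CPM (-1.82 ± 0.17). Aif1, the actin-binding protein IBA1, stood at 11.1 and 13.1 against 38.6 and 68.4 CPM (-1.97 ± 0.22). Wwp1, a ubiquitin ligase (-2.19 ± 0.15), Rnase4, a ribonuclease (-2.18 ± 0.22), Ms4a6c (-1.92 ± 0.14) and Arhgap19, a GTPase-activating protein (-3.23 ± 0.37), were lower over plates as well. Outside the rule, so was Gpr176, which was found in 0.694% of the high-score cells and 6.10% of the others.

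Chemokines split in both directions. Of 22 tested, 9 were higher and 6 lower at an unadjusted p under 0.05, and 2 were higher and 3 lower over plates. The median was 0.24, with opposite signs in mouse 1 (-0.14) and mouse 2 (0.26), and it turned to -0.16 without plate 3, -0.09 with no filter and -0.02 with a top 10% class. Ccl8, a monocyte attractant, stood at 19.2 and 30.4 CPM in the high-score cells and 263 and 581 CPM in the others, with log2 differences of -4.02, -3.44, -4.14 and -4.07 on the 4 plates (edgeR adjusted p over plates 0.00748, the lowest of all genes). The monocyte attractants Ccl7 (52.4 and 6.16 against 551 and 228 CPM) and Ccl12 (6.13 and 1.09 against 154 and 177 CPM) were lower over plates too. Some of the chemokines are also on the C1q and Maf list.

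Ccl6 and Ccl9 were higher over plates, with 1556 and 1786 against 1097 and 1199 CPM for Ccl6 and 7931 and 5969 against 5106 and 4460 CPM for Ccl9. Ccl22 and Ccl17, attractants for Ccr4-bearing T cells, had 1.06 ± 0.30 and 1.02 ± 0.97, higher on 2 and 3 of 4 plates. Ccl3 had -0.32 ± 0.39 and Cxcl16 0.36 ± 0.10. Outside the rule, Ccl24 stood at 13.4 and 83.1 against 4.10 and 3.74 CPM, and the receptor Ccr1 at 58.6 and 43.4 against 19 and 5.96 CPM, neither past the threshold.

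Of 22 genes of alternative activation tested, 2 were higher and 4 lower at an unadjusted p under 0.05, with a median of -0.30. Mrc1, the mannose receptor CD206, stood at 239 and 214 CPM in the high-score cells against 617 and 871 CPM and was the only list member that differed over plates (log2 -1.58 ± 0.18). Arg1, Retnla and Chil3 differed in sign between plates. Arg1 stood at 186 and 41.6 against 105 and 337 CPM, and Retnla at 0.273 and 68.2 against 12.8 and 11.7 CPM. The lectins Clec10a and Mgl2 had -1.24 ± 0.40 and -0.10 ± 0.41.

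The high-score cells did not have more RNA of the common TNF-response genes. Of 31 genes tested, 3 were higher and 6 lower at an unadjusted p under 0.05 (5.38% and 7.35% of all genes). In this list 0 differed over plates, and the median was -0.13. Tnfaip3, Nfkb2 and Traf1 had 0.01 ± 0.17, -0.21 ± 0.17 and 0.47 ± 0.13. The lectin Clec4e stood at 262 and 259 against 752 and 807 CPM (-1.47 ± 0.09) and the acute-phase gene Saa3 at 40.3 and 31.5 against 148 and 148 CPM (-1.94 ± 0.14), both lower on 4 of 4 plates without passing over plates. Il1b was at no more than 3.43 CPM in either class, and Tnf had 0.11 ± 0.22.

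Of 10 TNF receptor genes, 2 were higher and 0 lower, with a median of 0.04 that turned to -0.07 with library size in place of TMM, -0.11 with limma and -0.0022 without plate 2. Tnfrsf1b (TNFR2) stood at 269 and 366 against 231 and 290 CPM and Tnfrsf1a (TNFR1) at 65.6 and 86.6 against 78.0 and 71.3 CPM. Among 16 AP-1 and Maf family genes the median was -0.08, and Maf was among the members that differed over plates. Junb, Jund and Fosl2 had 0.22 ± 0.10, 0.27 ± 0.14 and 1.02 ± 0.45.

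Of the listed type I interferon response genes and cell cycle genes, 0 differed over plates. Outside the rule and these lists, the mitotic gene Aspm was lower over plates (log2 -2.42 ± 0.31), found in 6.25% against 12.2% of cells. Of 19 interferon genes, 13 were lower and 1 higher at an unadjusted p under 0.05 (7.35% and 5.38% of all genes). On all 4 plates 10 were lower (13.3% of all genes), and the median was -1.76. Taken alone, mice 1 and 2 had list medians of -1.58 and -1.03. Ifit2 stood at 23.2 and 16.5 against 75.1 and 86.8 CPM and Rsad2 at 23.1 and 17.3 against 130 and 58.1 CPM. Isg15 was at no more than 1.41 CPM. Outside the rule, Gbp2 was the higher member, at 123 and 288 against 74.3 and 141 CPM.

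Of 20 G2/M genes, 20 were lower at an unadjusted p under 0.05 (7.35% of all genes). On 4 of 4 plates 15 were lower (13.3% of all genes), and the median was -1.45. Top2a, topoisomerase 2α of dividing cells, stood at 25.7 and 10.2 against 88.1 and 74.6 CPM, with log2 differences of -2.04, -1.11, -4.93 and -1.80. Mki67 stood at 22.3 and 15.3 against 52.0 and 55.6 CPM, and Ccnb1 and Cdk1 had -1.23 ± 0.20 and -0.84 ± 0.15. Of 20 S phase genes, 7 were lower, with a median of -0.78. Rrm2 had -1.68 ± 0.53, Mcm5 -0.66 ± 0.35 and Pcna 0.10 ± 0.14. Of 13 genes of the integrated stress response, 7 were lower and 1 higher, with a median of -0.71, and Asns and Trib3 had -0.71 ± 0.11 and -1.12 ± 0.24. Outside the rule, the cystine transporter Slc7a11 had 1.01 ± 0.24.

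Of 12 macrophage identity genes, 4 were lower and 0 higher, with a median of -0.40, and Aif1 was the only member that differed over plates. Adgre1 (F4/80) stood at 514 and 325 against 824 and 751 CPM (log2 -0.83 ± 0.15) and Lyz2 at 14411 and 20140 against 25870 and 23940 CPM, and Csf1r had 0.08 ± 0.07, which turned to -0.03 when library size replaced TMM. Outside the rule, the Fc receptor Fcgr1 was found in 12.5% against 29.8% of cells. The monocyte list had a median of -0.17 over 11 genes, none at an unadjusted p under 0.05, and Ly6c2 and Plac8 were at no more than 0.714 CPM. The cholesterol synthesis list had a median of -0.09 over 19 genes, or 0.0052 without mouse 1. Of these genes 2 were lower (7.35% of all genes), and Hmgcs1 and Sqle had -0.09 ± 0.17 and -0.23 ± 0.14.

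The same score was then examined in the IL4+IL13 cells, which the choice of the class had not used. Of 721 kept cells, 14 were above the boundary of the class, or 1.94% (exact Clopper-Pearson 95% interval 1.07 to 3.24%, counting error only), numbering 5, 3, 2 and 4 on plates 2 to 5. The share was 2.21% in mouse 1 and 1.67% in mouse 2. With the top 20% of TNF-treated cells fixed by the rule, this share describes the IL4+IL13 cells only.

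The 14 cells were chosen by the score, so their levels of the 6 score genes are a description. Mmp12 and Itgax were found in all 14 cells, with a median of 5130 and 182 CPM, and Dcstamp in 10 of them. Lrrc32 was found in 2 of the 14 cells and H2-M2 in 3, against 62.5% and 60.4% of the 144 high-score TNF-treated cells. Outside the score, Csf2rb and H2-Aa were each found in 13 cells, Cd74 in all 14 and Ocstamp in 2, and these genes were found in 100%, 94.4%, 99.3% and 14.6% of the high-score TNF-treated cells. Ahr was found in 0 of 14 cells, which allows up to 21.4% of cells with a fragment at this depth and says nothing of cells that express it below that, and its share among the high-score TNF-treated cells was 47.2%. No test was made on so few cells.

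In the IL4+IL13 cells the top 20% by the same score (144 cells, score at or above 1.75) were compared with the other 577 cells. The score of the top cells came mostly from Mmp12, with a mean log2(CPM + 1) of 10.1, against 3.54 for Itgax and at most 0.965 for the rest. At equal depth, Mmp12 was found in 100%, Itgax in 56.9%, Pdpn in 15.3%, Dcstamp in 12.5%, H2-M2 in 11.1% and Lrrc32 in 6.94%. Ranking by the 5 genes without Mmp12 kept 96 of the 144 cells. The edgeR fit over mice called 0 of 17151 genes (0%, smallest adjusted p 0.117), with 1583 (9.23%) at an unadjusted p under 0.05, DESeq2 called 490 (2.86%) and limma 3. The fit on plate sums called 60 of 16005 genes (0.375%), 44 higher (0.275%) and 16 lower (0.100%), but 1 without plate 5 and 0 without plate 2, 3 or 4.

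Of the 81 genes that differed over plates under TNF, 79 were tested under IL4+IL13 and 77 had the same direction (97.5%), against 63.7% of 16325 genes tested in both treatments. The cells of the 2 treatments came from the same mice and plates. The 27 genes called in both are 33.3% of the 81 and 27 of the 60. Under IL4+IL13, Csf2rb stood at 261 and 637 CPM in the top cells against 88.9 and 250 CPM (log2 1.54 ± 0.11), Anxa1 at 5444 and 4584 against 2452 and 1792 CPM (1.34 ± 0.07), Maf at 55.2 and 53.3 against 215 and 234 CPM (-1.96 ± 0.12), and Mrc1 at 516 and 567 against 1437 and 1447 CPM (-1.33 ± 0.08). All 4 differed over plates there too.

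The MHC class II list had a median of 1.82 under IL4+IL13, with H2-Aa at 813 and 1553 against 84.9 and 212 CPM (log2 3.15 ± 0.13, edgeR adjusted p over plates 0.00850). The C1q and Maf list had a median of -1.50 there, the alveolar macrophage list 0.99 and the glycolytic list 0.36. The G2/M list had a median of 0.06 under IL4+IL13 against -1.45 under TNF, the interferon list -0.97 against -1.76 and the integrated stress response list -0.13 against -0.71. These list medians were not tested between treatments.

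**Figure D5:**
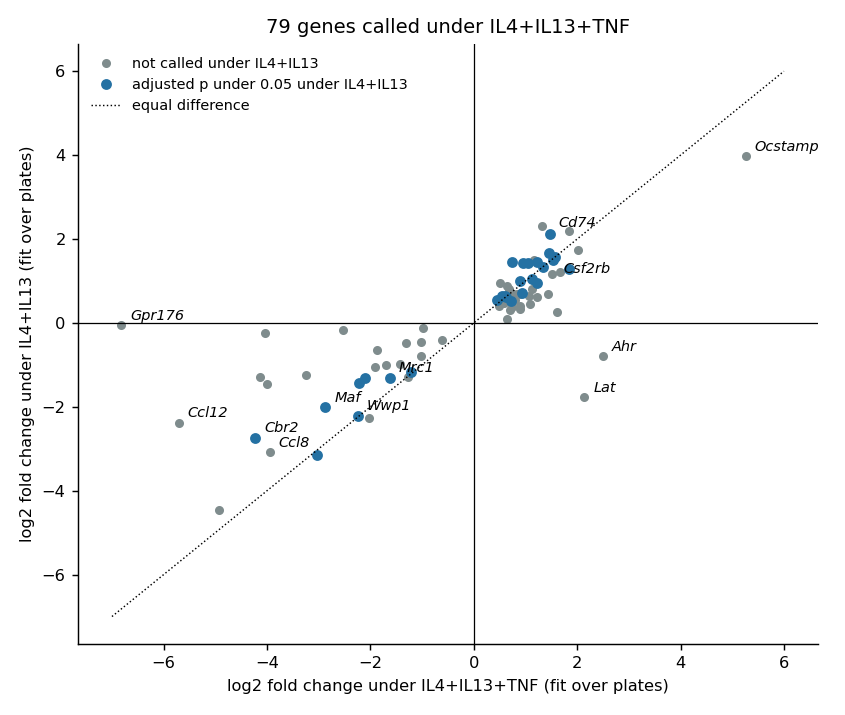
Log2 fold change between the top 20% and the other cells under IL4+IL13 (y axis) against that under IL4+IL13+TNF (x axis), both from the fit on plate sums, for the 79 genes that differed over plates under TNF and were tested in both. Blue points passed under IL4+IL13 too, the dotted line is equality, and Ahr and Lat are the 2 genes of opposite sign.

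The difference between the treatments was tested as an interaction in 1 edgeR fit over all 8 sums of mouse, treatment and class. It called 0 of 17766 genes (0%, smallest adjusted p 0.180), with 970 (5.46%) at an unadjusted p under 0.05, and 0 of 16898 (0%) on plate sums, with 1018 at an unadjusted p under 0.05, while DESeq2 called 96 (0.540%). Among the genes named, Ahr was at 35.0 and 49.7 CPM against 6.78 and 9.15 CPM under TNF but at 5.53 and 5.76 against 5.95 and 18.2 CPM under IL4+IL13. Clec4e, lower in the high-score cells under TNF, stood at 30.1 and 33.3 against 16.3 and 18.3 CPM under IL4+IL13. The top cells under IL4+IL13 had lower scores than the high-score cells under TNF, so the 2 contrasts span different ranges of the score.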

How the data were processed

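Single BMDMs were sorted into plates and sequenced by Smart-seq2. Per the labels and the study's methods, the authors aligned reads to mm10, counted fragments per Ensembl gene with featureCounts 1.6.3 without using strand, and deposited 1 table of raw counts with 92 spike-in rows. There were no molecular identifiers, so counting intervals cover counting error only. Of its 1535 columns, 11 were not used: 8 matched no sample and 3 had no group.

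Wells were filtered as given above, and cells were scored on CPM without spike-ins. Counts were summed per mouse and class, filtered with filterByExpr, scaled by TMM and tested by edgeR 4.0.16 (glmQLFit and glmQLFTest, mouse as a block), with Benjamini-Hochberg adjustment over all genes. The 6 score genes were left out of this fit. Alternatives were plate sums, DESeq2 1.42.0, limma 3.58.1 on log2(CPM + 1), library size, no filter, other cell filters, other class rules, and fits without a mouse or plate. CPM values in the text are of summed counts unless named as means or per cell. High-score and other sums of 1 mouse come from the same plates, and their deviations from the class means had r = 0.376, so the mouse was kept as a block. Pairing by mouse number rests on the labels.

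The score, the lists and the members were chosen with earlier results of these data known. The rule named the 12 largest higher and lower called genes that moved alike on 4 of 4 plates and were found in at least 25% of cells of the higher class, the key and called genes of each list, and the 10 genes most rank-correlated with the score. Because the fit over mice called 0 genes, it was applied to the plate fit after the values were seen. Predicted genes were left out. A few genes that the rule or a list names are not reported here. Genes marked as outside the rule were chosen after their values were seen. Genes were looked up by the symbols of Ensembl. Figures and shares used Python 3.11.15. Scripts were tested on simulated data.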

Additional observations from a re-analysis of the deposited data

Results flagged for a closer look

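For 8 of the named genes, the difference between the classes had opposite signs under the 2 treatments in both mice and an unadjusted interaction p under 0.05 in the edgeR fit over mice. None passed adjustment over all 17766 genes, and 970 of these (5.46%) had such a p. Each value is the log2 fold change between the classes under IL4+IL13+TNF minus that under IL4+IL13, and the causes were not tested.

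Clec4e, a C-type lectin, had a difference of -2.43 (edgeR adjusted p = 0.180), with -1.43 and -1.50 under TNF in mice 1 and 2 and 0.95 and 0.93 under IL4+IL13. For the other 7 genes the adjusted p was 0.883. Ahr had 3.31, with 2.38 and 2.51 under TNF and -0.01 and -1.50 under IL4+IL13. Cd86, a costimulatory ligand, had -2.76, with -1.77 and -1.12 under TNF and 0.72 and 1.67 under IL4+IL13. Ccnb1, a cyclin of mitosis, had -1.82, with -1.08 and -1.33 under TNF and 0.38 and 0.77 under IL4+IL13.

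The remaining differences were smaller. Cd274 (PD-L1) had -0.55, Ctsd -0.41 and Lyz2 -0.60, each lower in the high-score cells under TNF and higher in the top cells under IL4+IL13. Csf1r had 0.26, with 0.11 and 0.04 under TNF and -0.22 and -0.17 under IL4+IL13, and its sign under TNF turned when library size replaced TMM.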

How the results depend on the processing

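Alternatives were run for each comparison. The count of called genes under TNF was 0 over mice and moved to 81 (52 higher, 29 lower) on plate sums and 890 (398 and 492) with DESeq2, and it was 0 to 15 with a plate or mouse left out (15 without plate 3, 0 without any of the others). Without the replicate block it was 0, with 1226 genes at an unadjusted p under 0.05. Under IL4+IL13 it moved from 0 to 60 on plate sums, 490 with DESeq2, 57 with no filter, 3 with a class set within each plate and 3 with limma, and was 0 to 1 with a plate or mouse left out. The interaction count moved from 0 to 96 with DESeq2 and 1 with no filter. The cause of these shifts was not tested.

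For the genes left out of the score in turn, the log2 fold changes are a description and no test is given. Under TNF, Dcstamp had 3.90 on plate sums, 4.04 with DESeq2, 4.0 with no filter and 3.89 with limma. It had 4.19 with wells filtered by median absolute deviations and 4.23 with a class within each plate. Itgax had 2.55 on plate sums and 2.56 with DESeq2, Mmp12 had 2.75 by both, and Lrrc32 had 3.19 and 3.21. With no filter Lrrc32 had 3.17, and with DESeq2 H2-M2 had 1.66 and Pdpn 1.52. Under IL4+IL13, Dcstamp had 6.89 with DESeq2 and 6.84 with no filter, and Itgax 3.95 on plate sums and 3.97 with DESeq2. DESeq2 there gave Mmp12 2.58, Pdpn 3.19 and Lrrc32 3.78, while H2-M2 had 1.61 with DESeq2 and 0.95 on plate sums. With a mouse or plate left out, Mmp12 under TNF ranged from 2.54 to 2.95 and Lrrc32 from 3.11 to 3.28. With a top 10% class, the share of IL4+IL13 cells above the boundary was 0.139% and the ratio of genes found 0.977 against 0.994.

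Of 2566 values for 161 named genes under 16 settings, 2397 were counted as unchanged, 156 kept direction and passed the threshold, and 13 turned. With a mouse or plate left out, Ccl17 ranged from -0.13 to 2.24, Ccl22 from -0.013 to 3.18, Cd80 from -0.064 to 1.52, Chil3 from -2.79 to 0.63, Itgal from -1.58 to 0.10, Mertk from -2.85 to 0.086, Nfkb2 from -0.45 to 0.0081 and Tgfbi from -1.03 to 0.13. Chil3 also turned to -1.04 on plate sums, and Csf1r to -0.031 with library size and -0.042 with limma. Unchanged meant the same sign and the same side of the adjusted p threshold of 0.05. Because the reported fit called 0 genes, a change in size alone still counted as unchanged. A turn was counted only where the reported value exceeded its SE, so turns of smaller values are counted among the 2397. Of 432 list medians, 140 moved by at least the standard deviation between the medians of the 2 mice. Among the 432, 19 changed sign, in 9 of 27 lists with medians between -0.34 and 0.25. Depth limits the genes found in few cells, such as Ocstamp.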
